A study of Rattus norvegicus with 18 samples.

Results

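Genes of the type I interferon antiviral response were followed in rat blood, as a set of 36 genes listed by their known role. Of the 36, 31 matched a probe of the array through its transcript accession and RefSeq, and all 31 passed the signal filter, among 13612 named genes that did. Ddx58, Zbp1, Herc6, Ifi44l and Xaf1 had no matched probe and carry no value. The blood came from male rats of the strains Brown Norway (BN) and Sprague Dawley (SD). Each strain had a control group on sterile water (4 BN and 5 SD arrays) and a group given procainamide at 40 mg/kg (4 BN and 5 SD arrays). Procainamide is a heart rhythm drug that can cause a lupus-like illness, and the question is whether that autoimmunity depends on the strain. Rat age and the length of treatment are not given in the sources used here, nor whether every array had its own animal. The p-values therefore measure only the spread between these samples, which may be technical.

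Type I interferons are secreted proteins that warn cells of viral nucleic acid. They bind a receptor whose kinases activate a factor containing STAT2 and IRF9, which binds interferon-stimulated response elements in the promoters of antiviral genes. Those genes make sensors of viral RNA, enzymes that destroy or block viral RNA, and the ubiquitin-like tag ISG15 with its enzymes. In blood leukocytes their joint rise is known as the interferon signature of lupus. Interferon gamma has its own receptor and acts mainly through a different element, the gamma-activated sequence, and several antiviral genes answer to both.

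The elements were looked for in the RefSeq promoters (build GRCr8, from 250 bases before to 50 bases after the annotated start), which the table holds for 26 of the 36 members. The core of the interferon-stimulated response element (GAAA, any 2 bases, then GAAA) was found on either strand in 18 of 26 promoters (69.2%), against 1312 of all 33469 promoters (3.92%). The letters TTCNNNGAA, the gamma-activated sequence, were found in 5 of 26 (19.2%), against 8.87% of all promoters. Counts of the first motif were 7 of 9 among members with an entry that changed with the drug or differed in their response, and 9 of 14 among the other measured members. In Oas1a, Bst2 and Trim21 the matches to the first motif overlap each other, and in Bst2 the second motif overlaps them too. The promoters below belong to Oasl2, Parp14, Lgals3bp and Irf7, members whose results are described in what follows, and are shown so that the element can be seen in place. They run 5′ to 3′ in the direction of the gene, the capitals mark the response element core or its reverse complement, and a match is a description of the letters, not evidence of binding.
Oasl2, chr12:47383136-47383435, minus strand: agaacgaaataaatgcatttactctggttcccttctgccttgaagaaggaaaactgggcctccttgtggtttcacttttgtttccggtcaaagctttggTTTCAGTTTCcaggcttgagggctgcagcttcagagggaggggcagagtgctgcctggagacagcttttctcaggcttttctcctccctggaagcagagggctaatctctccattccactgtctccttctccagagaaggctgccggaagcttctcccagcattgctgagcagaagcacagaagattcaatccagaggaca
Parp14, chr11:78407884-78408183, plus strand: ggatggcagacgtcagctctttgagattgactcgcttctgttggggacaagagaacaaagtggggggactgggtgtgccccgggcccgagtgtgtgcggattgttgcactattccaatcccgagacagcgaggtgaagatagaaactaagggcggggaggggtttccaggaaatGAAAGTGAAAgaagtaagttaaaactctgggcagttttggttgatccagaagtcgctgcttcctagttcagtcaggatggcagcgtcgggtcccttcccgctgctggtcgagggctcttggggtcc
Lgals3bp, chr10:104127799-104128098, minus strand: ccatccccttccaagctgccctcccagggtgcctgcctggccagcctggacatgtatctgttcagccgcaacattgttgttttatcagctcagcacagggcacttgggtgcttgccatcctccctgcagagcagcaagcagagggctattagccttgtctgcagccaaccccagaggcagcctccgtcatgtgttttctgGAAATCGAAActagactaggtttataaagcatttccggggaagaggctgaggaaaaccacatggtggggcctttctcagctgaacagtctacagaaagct
Irf7, chr1:205799974-205800273, minus strand: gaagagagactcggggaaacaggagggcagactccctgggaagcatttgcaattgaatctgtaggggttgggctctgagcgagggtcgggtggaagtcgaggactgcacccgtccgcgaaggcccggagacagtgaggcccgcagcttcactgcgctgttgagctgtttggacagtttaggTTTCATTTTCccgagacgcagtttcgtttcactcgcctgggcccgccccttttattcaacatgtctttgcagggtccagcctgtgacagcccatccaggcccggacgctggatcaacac
The first base of the match lay at position -151 from the start in Oasl2, -76 in Parp14, -50 in Lgals3bp and -69 in Irf7. Parp14 also held the gamma-activated letters, at position -87.

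**Figure D1:**
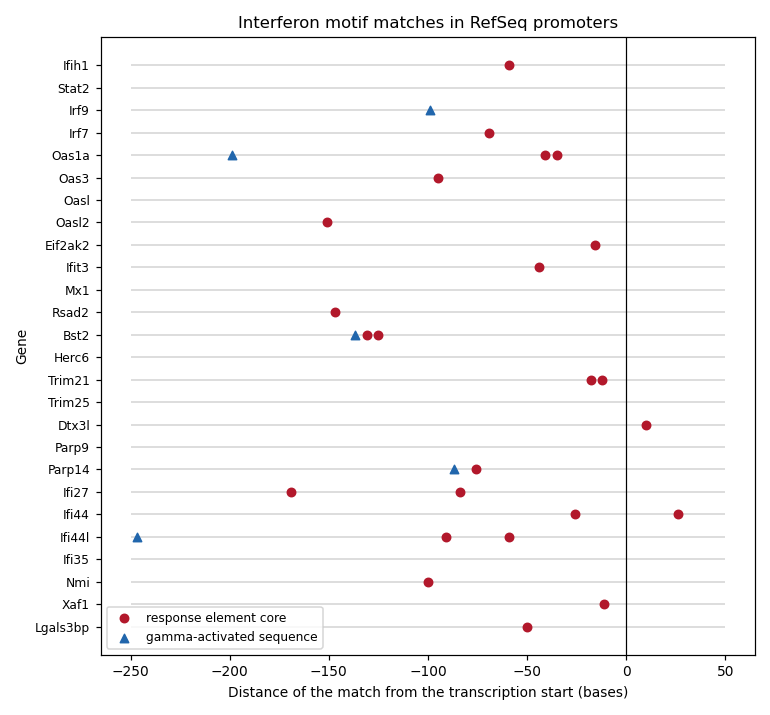
Positions of motif matches in the promoters of the 26 members with a RefSeq entry. The horizontal axis is the distance in bases of the first base of the match from the transcription start, circles are the response element core and triangles the gamma-activated sequence. Circles run from -169 to 26, and 18 of the 26 genes have at least 1.

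The Cy5 dye marked the sample. The Cy3 dye marked a strain-matched reference, labelled as the RNA of control replicate 1. The drug response is given as a difference in log2 Cy5/Cy3, and the strains are compared in normalized log2 Cy5 because their references were different RNA. By the labels the arrays of control replicate 1 therefore set an RNA against itself. The members did not read so on BN control 1: 26 of 31 had a log2 ratio above 0, with a median of 0.41 where the median of all genes was 0.00. On SD control 1 the median of the members was -0.26, with 3 of 31 above 0. BN responses and control differences that passed are therefore described with and without BN control 1, as are some that did not pass. These values stand beside the gene or in a paragraph of their own. For Irf7 and Ifi27 the strain difference in response is given in that way, but not the BN response. The arrays were printed on 3 slides. The SD controls and SD procainamide 1 to 3 lay on slide 1, the BN controls and SD procainamide 4 and 5 on slide 2, and all BN procainamide arrays on slide 3. Slides 1 and 3 shared scan day 1 and slide 2 had scan day 2, so in BN the drug cannot be told apart from the slide, and only the SD procainamide arrays, which span both days, inform a scan-day term. The median Cy5 signal was 997 to 1986 on the BN controls, 1694 to 3187 on the BN procainamide arrays and 1446 to 2876 on the SD arrays. Markers of T cells (10 of 10 genes), monocytes (9 of 10), neutrophils (12 of 13), NK cells (8 of 8), platelets (7 of 8), red cells (7 of 8) and B cells (6 of 8) passed the filter, as did 7 of 10 genes of eye, gland and connective tissue. In bulk blood, fewer cells of a type and less RNA per cell cannot be told apart.

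In BN blood the antiviral genes did not move together. Oas2, which makes an RNA-activated synthetase of the messenger that switches on RNase L, was 5.03-fold lower with procainamide, while 5 members rose: the enzymes Parp9 (2.10-fold) and Parp14 (1.47-fold), the oligoadenylate synthetase-like Oasl2 (1.68-fold), the signal transducer Stat2 (1.38-fold) and the STAT partner Nmi (1.31-fold). These 6 of 31 members (19.4%) stand beside 22.8% of all genes called in BN, 8.99% higher and 13.8% lower, so the share of members called was near the background. The median log2 response of the 31 members was 0.12 (18 positive), that of all genes -0.02. Treated and control arrays did not overlap in 6 of 31 members, against 20% of all genes.

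In SD blood 5 members rose and none fell by limma's adjusted p in the fit over all 18 arrays, and at an unadjusted p under 0.05 there were 13 higher and 1 lower. They were Oasl2 (1.88-fold), the galectin-binding Lgals3bp (1.84-fold), the RNA sensor Dhx58 (1.78-fold), the virion tether Bst2 (1.66-fold) and Parp14 (1.45-fold). The members called were 16.1% of 31, where 3.18% of all genes were called in SD, 1.43% of all genes higher and 1.76% lower. The median log2 response of the members was 0.32 (26 of 31 positive), that of all genes -0.01. Treated and control arrays did not overlap in 10 members, against 8.92% of all genes. A fit of the SD arrays alone called 11 members: Dhx58, Oasl2, Parp14, Lgals3bp, Irf7, Irf9, Isg15, Ifi27, Ifi44 and Eif2ak2 higher, and Rsad2 lower, but not Bst2. The 3.18% of all genes belongs to the adjusted p of the fit over all 18 arrays. It is not the background of these 11 or of the unadjusted counts, for which no share of all genes is given.

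**Figure D2:**
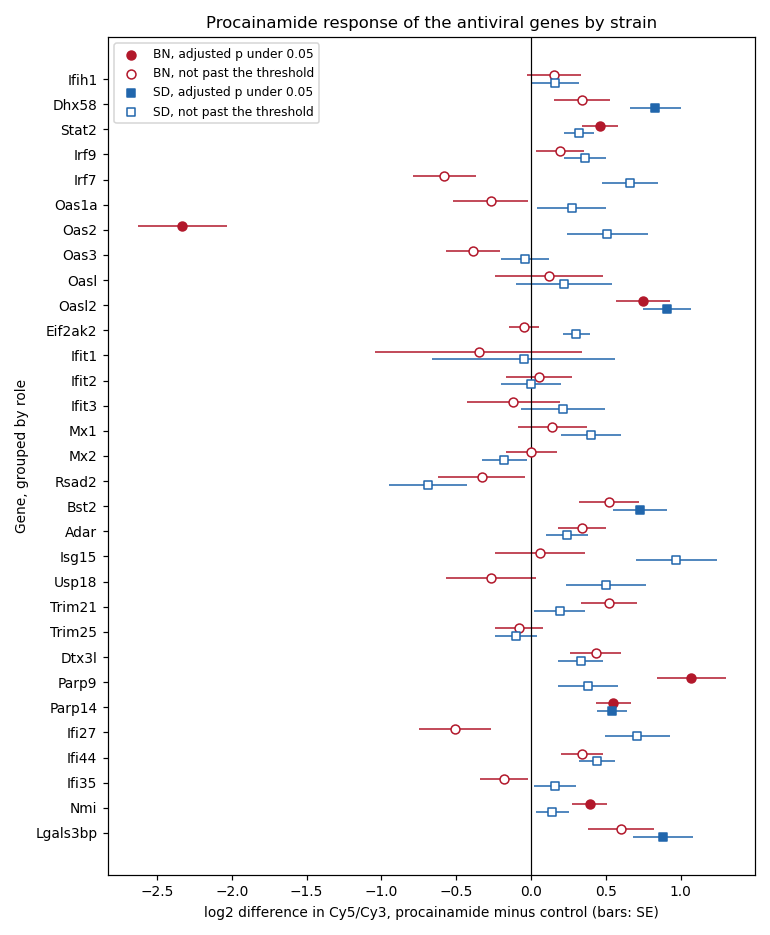
Log2 difference in Cy5/Cy3, procainamide minus control, of each of the 31 members in BN (circles) and SD (squares), with bars of 1 SE and filled symbols where the adjusted p was under 0.05. Oas2 stands alone at -2.33 in BN, the SD symbols lie mostly right of 0, and Oasl2 and Parp14 are filled in both strains.

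The difference between the strains' responses was tested directly. It passed for Oas2, Irf7 and Ifi27, in each of which the BN response was the lower. These 3 of 31 (9.68%) stand beside 10.7% of all genes, 3.15% with a higher and 7.54% with a lower BN response, again a share near the background. In Cy5 alone 7 members passed, Oas2, Irf7, Ifi27, Oas3 and Parp14 with the lower BN response and Parp9 (1.04) and Dtx3l (0.72) with the higher. The share of all genes called in that fit is not given, so the 7 cannot be set against a background. The median difference of the members was -0.18, that of all genes 0.01. The strains themselves differed in 13 members on sterile water (41.9%, against 36.7% of all genes) and in 4 on procainamide, 3 higher and 1 lower in BN (12.9%, against 19.2% of all genes, 9.46% higher and 9.75% lower).

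**Figure D3:**
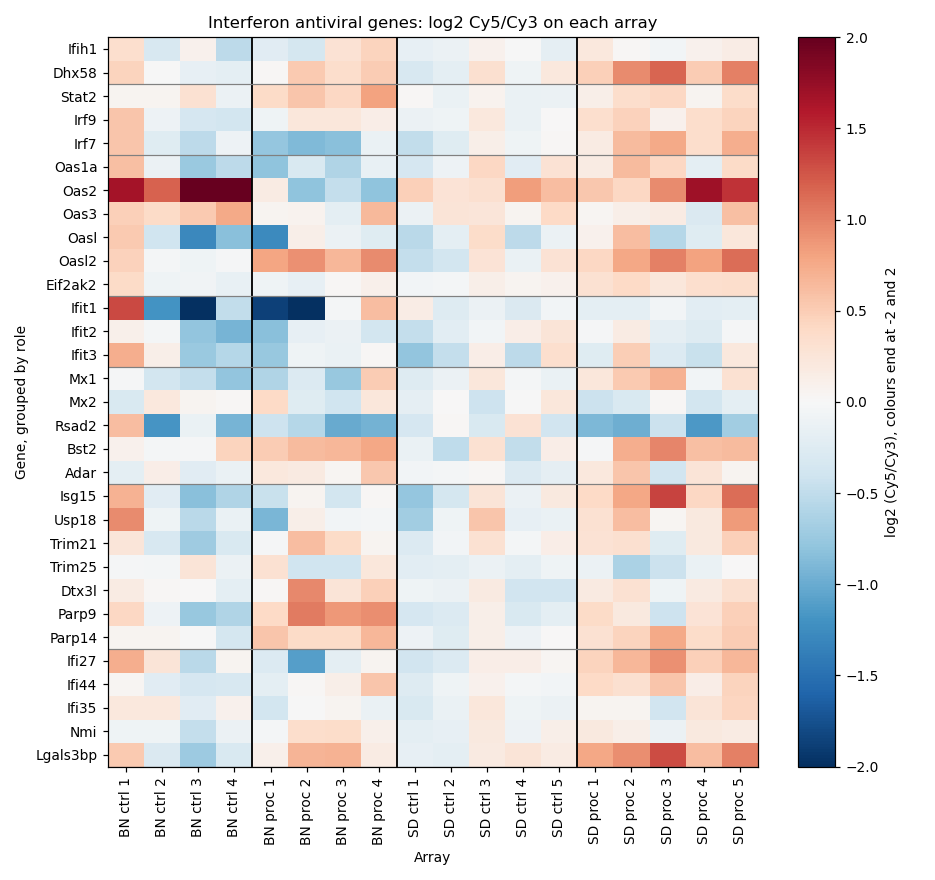
Log2 Cy5/Cy3 of the 31 members (rows, grouped by role) on the 18 arrays (columns), red above 0 and blue below, with colours ending at -2 and 2. Oas2 is red on every BN control array and blue on 3 of 4 BN procainamide arrays, BN control 1 is red over most rows, and Oasl2, Parp14, Lgals3bp and Dhx58 are red on all SD procainamide arrays.

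Among the sensors of viral RNA, Dhx58 regulates the signal of its relatives Ddx58 and Ifih1. Its log2 ratio was -0.32, -0.19, 0.32, -0.08 and 0.21 on SD control 1 to 5 and 0.48, 0.95, 1.17, 0.50 and 1.00 on SD procainamide 1 to 5. Every treated array lay above every control. The difference was 0.83 ± 0.17 (log2, SE; adjusted p = 0.0136), and 0.88 on the arrays of slide 1 alone, where the adjusted p was 0.0621 (0.0102 to 0.0621 over its 23 alternatives). It also missed the threshold without SD control 2, at 0.79. In BN, Dhx58 read 0.45, -0.01, -0.17 and -0.20 on the controls and 0.02, 0.53, 0.35 and 0.51 under procainamide. Those groups overlapped and the difference of 0.34 ± 0.19 did not pass (adjusted p = 0.217), nor did the difference between strains (-0.49 ± 0.25, adjusted p = 0.224). In Cy5 alone the BN difference was 0.55 ± 0.18 and passed (adjusted p = 0.0237 in limma), while the difference between strains was -0.10 ± 0.24 and did not. Ifih1, the sensor of long double-stranded RNA, had log2 responses of 0.15 in BN and 0.16 in SD, neither past the threshold.

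Of the transcription factors, Stat2, the subunit that sets the type I factor apart from the gamma pathway, read 0.06, 0.06, 0.31 and -0.12 on BN control 1 to 4 and 0.38, 0.56, 0.42 and 0.81 on BN procainamide 1 to 4. The groups did not overlap and the rise was 0.46 ± 0.12 (log2, SE; adjusted p = 0.00874). The SD response was 0.32 ± 0.10 and did not pass (adjusted p = 0.107), and the strains' responses did not differ beyond their error (0.14 ± 0.16, adjusted p = 0.597). Irf9, the DNA-binding partner of Stat2, had responses of 0.19 in BN and 0.36 in SD, neither of them past the threshold. Without BN control 1 the BN response of Irf9 was 0.39 ± 0.12 and passed.

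Irf7, the factor that amplifies interferon production once it has been induced, had response estimates of opposite sign in the strains. Its log2 ratio was 0.55, -0.24, -0.53 and -0.10 on the BN controls and -0.78, -0.89, -0.83 and -0.13 on the BN procainamide arrays, with BN procainamide 4 inside the range of the controls. In SD it was -0.49, -0.24, 0.11, -0.08 and 0.03 on the controls and 0.17, 0.63, 0.76, 0.35 and 0.72 under procainamide, with no overlap. Neither response passed alone (BN -0.58 ± 0.21, adjusted p = 0.0619; SD 0.66 ± 0.19, adjusted p = 0.0712). The difference between them did, at -1.24 ± 0.29 (2.36-fold, adjusted p = 0.0106). It was -1.03 without BN control 1 (adjusted p = 0.0157) and -0.76 ± 0.19 in Cy5 alone (adjusted p = 0.00635), kept its call with each of the 18 arrays left out, and had adjusted p from 0.00635 to 0.836 over its 29 alternatives. With scan day as a term it was -1.22 (adjusted p = 0.836) and with array brightness -1.14 (adjusted p = 0.443). Without BN control 3 the BN fall alone passed, at -0.73. BN control 1, at 0.55, was the highest BN control, and the BN response without it is not given.

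**Figure D4:**
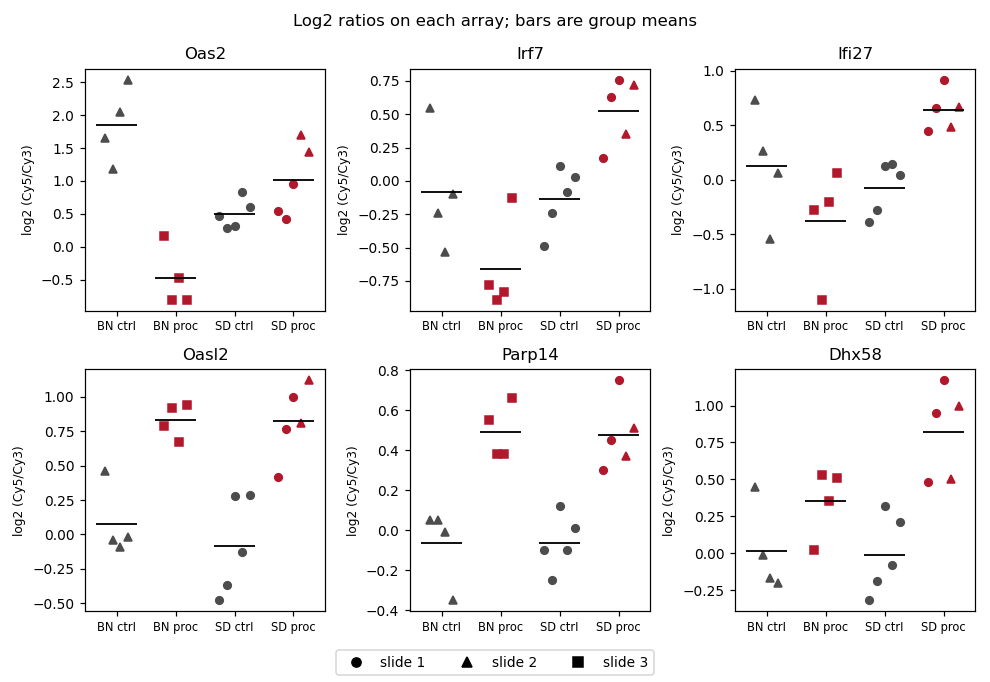
Log2 Cy5/Cy3 on each array for the 3 members whose response differed between strains (top) and 3 that rose in at least 1 strain (bottom). Points are arrays, grey for control and red for procainamide, circles, triangles and squares are slides 1, 2 and 3, and bars are group means; for Oas2 the 2 SD procainamide arrays of slide 2, at 1.70 and 1.44, lie above the 3 of slide 1, at 0.42 to 0.95.

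The oligoadenylate synthetase family makes the messenger that activates RNase L, which cuts viral and cellular RNA, and Eif2ak2, or PKR, halts translation on double-stranded RNA. Oas2 was the member with the widest changes. Its log2 ratio was 1.66, 1.18, 2.05 and 2.54 on BN control 1 to 4 and 0.17, -0.80, -0.47 and -0.80 on BN procainamide 1 to 4. All controls lay more than 1 log2 unit above all treated arrays, and the fall was -2.33 ± 0.30 (5.03-fold, adjusted p = 8.3e-05). By the labels BN control 1 set an RNA against itself, yet Oas2 read 1.66 there. Its mean log2 Cy5 was 12.31 on the BN controls and 9.71 on the BN procainamide arrays. In Cy3, labelled as the RNA of BN control 1 throughout, the means were 10.45 and 10.18. The cause of this mismatch was not tested. In SD the log2 ratio of Oas2 was 0.47, 0.28, 0.32, 0.84 and 0.61 on the controls and 0.54, 0.42, 0.95, 1.70 and 1.44 under procainamide. The SD response of 0.51 ± 0.27 did not pass (adjusted p = 0.358). The 2 high treated arrays are those of slide 2, which also held the BN controls. Within slide 1 the SD response was 0.14.

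The responses of the strains differed by -2.84 ± 0.40 for Oas2 (7.15-fold, adjusted p = 0.00132). The BN fall was -2.40 without BN control 1 (adjusted p = 0.000238) and kept its call with each of the 8 BN arrays left out. With scan day as a term it was -1.40 ± 0.42 (adjusted p = 0.153, the highest of its 20 alternatives, of which 3.78e-05 was the lowest), and with array brightness -1.22 (adjusted p = 0.00139). The difference between strains was -1.54 with scan day (adjusted p = 0.836, the highest of 29 alternatives, of which 8.98e-05 was the lowest) and -1.32 with brightness (adjusted p = 0.115). The part of the slide in the Oas2 values was not tested within BN.

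Oasl2, a relative of the synthetases, was one of only 2 members past the threshold in both strains. Its log2 ratio was 0.46, -0.04, -0.09 and -0.02 on the BN controls and 0.79, 0.92, 0.67 and 0.94 under procainamide. In SD it was -0.48, -0.37, 0.28, -0.13 and 0.29 on the controls and 0.42, 0.77, 1.00, 0.81 and 1.12 under procainamide. Neither strain showed an overlap, and the rises were 0.75 ± 0.18 in BN (adjusted p = 0.00703) and 0.91 ± 0.16 in SD (adjusted p = 0.00674). The difference between them was -0.16 ± 0.24 (adjusted p = 0.725), a span that leaves room for a strain difference of either sign. On the SD arrays of slide 1 alone the rise was 0.82 and missed the threshold (adjusted p = 0.0971, the highest of its 23 alternatives, of which 0.0042 was the lowest). In BN it missed it with scan day as a term (0.99, adjusted p = 0.155, the highest of 20, of which 0.00122 was the lowest).

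The other members of the family did not pass in either response in the log2 ratio over all 18 arrays. Oas1a had a log2 response of -0.27 in BN and 0.27 in SD, and Oas3 -0.39 and -0.04. In Cy5 alone Oas3 fell in BN by 0.73, and its strain difference in response, -0.83, passed too. Oasl read 0.12 and 0.22, with a range of -1.29 to 0.52 among the BN controls alone. Eif2ak2 had -0.05 ± 0.10 in BN and 0.30 ± 0.09 in SD, where its treated arrays (0.23 to 0.40) lay above all controls (-0.06 to 0.11) but the adjusted p was 0.0894.

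The IFIT proteins bind viral RNA that lacks host cap marks. None of the 3 members passed in a drug response: the log2 values were -0.35 in BN and -0.05 in SD for Ifit1, 0.05 and 0.00 for Ifit2, and -0.12 and 0.21 for Ifit3. Ifit1 was the most variable member. Its log2 ratio spanned -2.57 to 1.32 on the BN controls and -3.04 to 0.61 on the BN procainamide arrays, and in SD it was not well above background on any array.

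Among the effectors that block virus directly, Bst2, a membrane protein that holds budding virions to the cell, rose in SD. Its log2 ratio was -0.14, -0.51, 0.30, -0.50 and 0.13 on the controls and -0.03, 0.72, 0.98, 0.60 and 0.64 under procainamide, where array 1 fell within the controls. The rise was 0.73 ± 0.18 (adjusted p = 0.0375) and did not pass without any of SD control 1, 2 or 4 or SD procainamide 2, 3, 4 or 5. In BN the treated arrays (0.50 to 0.77) lay above the controls (-0.04 to 0.45), by 0.52 ± 0.20 (adjusted p = 0.0727). In Cy5 alone that difference was 0.11 ± 0.11 (adjusted p = 0.48 in limma), and the groups overlapped (15.36 to 15.43 against 15.15 to 15.52). Mean log2 Cy3 of Bst2, labelled as 1 RNA, was 15.16 on the BN controls and 14.75 on the BN procainamide arrays. The cause of this shift was not tested. The dynamin-like GTPases had responses of 0.14 in BN and 0.40 in SD for Mx1, and 0.00 and -0.18 for Mx2. Rsad2, or viperin, read -0.33 in BN and -0.69 in SD. All 5 treated SD arrays of Rsad2 (-1.15 to -0.43) lay below the 5 controls (-0.38 to 0.29), although the adjusted p was 0.175. Adar, the editing enzyme that marks double-stranded RNA as self, read 0.34 and 0.24. Apart from Bst2 in SD none of these passed.

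The ISG15 and ubiquitin group holds the tag, the enzyme that removes it (Usp18), ubiquitin ligases and ADP-ribosyl transferases. Parp9, which pairs with the ligase Dtx3l, read 0.41, -0.10, -0.76 and -0.60 on the BN controls and 0.40, 1.04, 0.86 and 0.93 under procainamide. BN control 1 and BN procainamide 1 met at about the same value and the other arrays did not overlap. The rise was 1.07 ± 0.23 (adjusted p = 0.00319), and 1.29 without BN control 1 (adjusted p = 0.000674, in a range of 0.000294 to 0.244 over its 20 alternatives, lost with scan day or brightness as a term). The SD response was 0.38 ± 0.20 (adjusted p = 0.360), and the strains' responses differed by 0.69 ± 0.31 (adjusted p = 0.157). Without BN control 1 that difference was 0.91 and passed.

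Parp14 was the other member that rose in both strains. It read 0.05, 0.05, -0.01 and -0.35 on the BN controls and 0.55, 0.38, 0.38 and 0.66 under procainamide. In SD it read -0.10, -0.25, 0.12, -0.10 and 0.01 on the controls and 0.30, 0.45, 0.75, 0.37 and 0.51 under procainamide. The groups were apart in both strains, by 0.55 ± 0.12 in BN (adjusted p = 0.00287) and 0.54 ± 0.10 in SD (adjusted p = 0.0103), with a difference between strains of 0.01 ± 0.16. In Cy5 alone that difference was -0.33 ± 0.11 and passed, with the lower response in BN. Its second, dimmer probe gave 0.95 in BN (adjusted p = 0.0201) and 0.55 in SD (adjusted p = 0.263). On the SD arrays of slide 1 alone the rise was 0.57 and missed the threshold. In Cy5 alone the BN value of Parp14 was 0.09 and did not pass (adjusted p = 0.416, the highest of its 20 alternatives, of which 0.00287 was the lowest). Its mean log2 Cy3, labelled as 1 RNA, was 15.26 on the BN controls and 14.80 on the BN procainamide arrays.

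Isg15 itself had the largest SD response of all members, 0.97 ± 0.27, but its adjusted p was 0.0570. Its log2 ratio was -0.78, -0.35, 0.25, -0.11 and 0.19 on the SD controls and 0.40, 0.77, 1.35, 0.42 and 1.11 under procainamide, with no overlap. In BN it read 0.69, -0.23, -0.83 and -0.60 on the controls and -0.44, 0.05, -0.37 and 0.03 under procainamide, a difference of 0.06 ± 0.30. The strains' responses differed by -0.91 ± 0.40 (adjusted p = 0.151). The remaining members of the group did not pass in a response in the log2 ratio over all 18 arrays. Usp18 had -0.27 in BN and 0.50 in SD, Trim21 0.52 and 0.19, Trim25 -0.08 and -0.10, and Dtx3l 0.43 and 0.33. In Cy5 alone Dtx3l (0.93 ± 0.17, adjusted p = 0.000393 in limma) and Trim21 (0.63 ± 0.19, adjusted p = 0.0131) rose in BN, while Usp18 and Trim25 did not pass.

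Of the other interferon-induced genes, Ifi27 had the third difference between strains. It read 0.73, 0.26, -0.54 and 0.06 on the BN controls and -0.28, -1.10, -0.20 and 0.06 under procainamide, overlapping. The highest BN control was BN control 1, and the BN response without it is not given. In SD it read -0.39, -0.28, 0.13, 0.14 and 0.04 on the controls and 0.45, 0.66, 0.92, 0.48 and 0.67 under procainamide, without overlap. The responses were -0.51 ± 0.24 (adjusted p = 0.151) and 0.71 ± 0.22 (adjusted p = 0.0891), and their difference was -1.21 ± 0.33 (2.32-fold, adjusted p = 0.0235). It was -1.01 without BN control 1 (adjusted p = 0.0429), -0.57 in Cy5 alone (adjusted p = 0.0196), -1.09 with array brightness as a term (adjusted p = 0.496) and -1.35 with scan day as a term (adjusted p = 0.836, the highest of its 29 alternatives, of which 0.00917 was the lowest).

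Lgals3bp, a secreted glycoprotein that binds galectins, read -0.17, -0.19, 0.18, 0.25 and 0.16 on the SD controls and 0.77, 0.93, 1.31, 0.62 and 1.00 under procainamide. The groups were apart by 0.88 ± 0.20 (adjusted p = 0.0232), and by 0.96 within slide 1. The call was lost without any of SD control 1 or 2 or SD procainamide 2, 3 or 5 (adjusted p of 0.00595 to 0.12 over its 23 alternatives). In BN it read 0.53, -0.29, -0.73 and -0.31 on the controls and 0.10, 0.68, 0.69 and 0.16 under procainamide. The BN difference was 0.60 ± 0.22 (adjusted p = 0.0582), and 0.85 without BN control 1, where it passed. In Cy5 alone it was 0.37 ± 0.14 and passed too (adjusted p = 0.0465 in limma).

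Nmi, which binds STAT proteins, read -0.08, -0.09, -0.48 and -0.12 on the BN controls and -0.04, 0.35, 0.36 and 0.10 under procainamide. Its groups were apart by a narrow gap, the rise was 0.39 ± 0.12 (adjusted p = 0.0296), and it did not pass without any of 3 of the 8 BN arrays (BN control 3 and BN procainamide 2 and 3). In Cy5 alone it was 0.06, and it passed in 10 of its 20 alternatives. Ifi44 had 0.34 in BN and 0.44 in SD (adjusted p = 0.0600), and Ifi35, the partner of Nmi, -0.18 and 0.16.

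Leaving out BN control 1 raised the members called in BN from 6 to 10, 9 of them higher, and the median of the members from 0.12 to 0.31. Leaving out BN procainamide 1 also gave 10. The share of all genes called is not given for either fit, so neither count can be set against a background. Without BN control 1 the BN log2 response was 0.88 for Oasl2, where that array stood apart from the other controls, 0.46 for Stat2, 0.59 for Parp14 and 0.43 for Nmi, all of which passed. It was 0.48 for Dhx58 and 0.37 for Isg15, which did not. In both counts the added members were Trim21, Ifi44 and Lgals3bp, with Irf9 in the first and Dtx3l in the second. With scan day as a term no member was called by limma in BN (6 had an unadjusted p under 0.05, and 209 of 26446 probes were called) and 3 were in SD (Dhx58, Oasl2 and Parp14). With the median brightness of the array as a term 1 was called in BN, Oas2. SD counts fell to 2 without SD control 2, and to 3 without any of SD control 1 and SD procainamide 2, 3 or 5.

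On sterile water the control groups of the strains differed in 13 members, in log2 Cy5. BN controls were higher in 11 and lower in 2, against 16.6% and 20.1% of all genes, and the median of the members was 0.29, that of all genes -0.06. Oas2 led, with 12.07, 11.72, 12.58 and 12.85 on the BN controls and 9.83, 9.73, 9.76, 10.42 and 10.07 on the SD controls. The groups lay more than 1 log2 unit apart, and the difference was 2.34 ± 0.32 (5.08-fold, adjusted p = 5.85e-05). All BN controls lay on slide 2 and all SD controls on slide 1. With scan day as a term it was 1.05 (adjusted p = 0.227, the highest of its 19 alternatives, of which 5.1e-05 was the lowest).

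Ifit3 was 14.49, 13.84, 13.13 and 13.31 on the BN controls and 12, 12.30, 12.82, 12.26 and 12.94 on the SD controls. BN was higher on every array, by 1.23 ± 0.26 (2.34-fold, adjusted p = 0.00152), and by 0.96 without BN control 1. Ifit1 was well above background on 3 of 4 BN controls and on no SD array. Its measured mean was 8.40 against 6.49, an estimated 3.77-fold higher in BN (1.91 ± 0.65, log2, SE; adjusted p = 0.0279 in limma). The groups overlapped, at 6.57 to 10.58 on the BN controls and 6.30 to 6.79 on the SD controls. The difference did not pass without BN control 1 (adjusted p = 0.108), BN control 4, SD control 2 or SD control 4. Over its 18 alternatives it was 1.19 to 3.31, with adjusted p from 0.00618 to 0.517.

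Irf7 was 15.77, 15.22, 15.06 and 15.35 on the BN controls and 14.18, 14.41, 14.65, 14.46 and 14.52 on the SD controls, a difference of 0.91 ± 0.14 (1.87-fold, adjusted p = 0.000129) with no overlap. Trim25, a ubiquitin ligase that activates the sensor Ddx58, was 13.93, 13.94, 14.27 and 13.84 against 13.22, 13.19, 13.27, 13.18 and 13.26. That difference was 0.77 ± 0.16 (adjusted p = 0.00138), and 0.19 with scan day as a term (adjusted p = 0.742, the highest of its 19 alternatives, of which 0.000191 was the lowest). Oas3 was 10.22, 9.82, 9.96 and 10.22 against 9.16, 9.38, 9.42, 9.10 and 9.47, a difference of 0.75 ± 0.16 (adjusted p = 0.00196). Neither Trim25 nor Oas3 overlapped between the strains.

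Parp9 and Adar were the members lower in BN. Parp9 was 12.63, 12.12, 11.50 and 11.68 on the BN controls and 12.69, 12.73, 13.05, 12.64 and 12.66 on the SD controls. BN control 1 lay just under the lowest SD array, and the difference was -0.77 ± 0.19 (adjusted p = 0.00464). Adar was 9.58, 9.87, 9.51 and 9.65 against 10.50, 10.39, 10.46, 10.16 and 10.18, apart by -0.69 ± 0.17 (adjusted p = 0.0045). The other calls, all higher in BN, were Ifi27 (0.57), Dhx58 (0.53), Parp14 (0.32), Bst2 (0.32) and Eif2ak2 (0.26). The dimmer probe of Parp14 gave 0.08 and did not pass, and that of Eif2ak2 gave 0.84 and did. Without BN control 1 the control difference was 2.42 for Oas2, 0.77 for Irf7, 0.79 for Trim25, 0.69 for Oas3, -0.99 for Parp9 and -0.66 for Adar, all past the threshold. It was 0.47 for Ifi27, 0.29 for Parp14 and 0.33 for Bst2, which passed, while Dhx58 (0.36) and Eif2ak2 did not, and Trim21 (-0.48) was added. Control arrays of the strains did not overlap in 12 members, against 34.5% of all genes. Platelet markers were higher in BN controls in 5 of 7 (list medians of 13.33 to 13.77 against 12.99 to 13.21) and neutrophil markers in 4 of 12 (11.39 to 12.17 against 10.52 to 11.01). Of all genes 36.7% were called here, 16.6% higher in BN. At an unadjusted p under 0.05 in limma 7 of the 12 neutrophil markers differed, 3 of them lower in BN. The part of these cells in the strain differences was not tested.

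With scan day as a term none of the 13 passed in limma (5 members had an unadjusted p under 0.05), while 384 probes did, and the median of the members was 0.27. The reference channel gives a second reading of the strains, from control RNA on all 18 arrays. Its BN minus SD difference had the sign of the Cy5 difference in 12 of the 13 members called. Among them were Irf7 (1.09), Ifit3 (1.18), Oas2 (0.77), Parp9 (-0.53) and Adar (-0.50), and the difference was 0.00 for Bst2. For Oas2 the Cy5 difference was 2.34, so the sign was shared but not the size. By the labels the reference RNA is also control replicate 1, so it is not an independent sample.

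**Figure D5:**
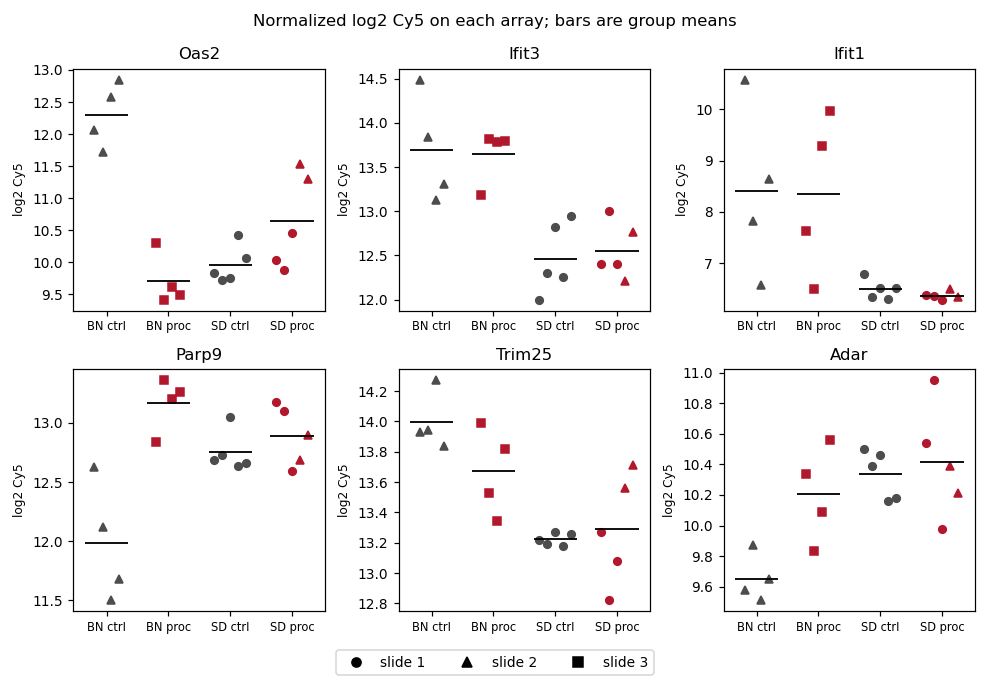
Normalized log2 Cy5 on each array for 6 members that differed between the strains' controls. Points are arrays, grey for control and red for procainamide, shapes are slides as labelled, and bars are group means; Oas2 is near 12 on the BN controls and near 10 on the SD controls and the BN procainamide arrays, while Ifit3 is higher in BN in both conditions.

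Under procainamide fewer members differed between the strains. Ifit3 stayed higher in BN, at 13.18, 13.82, 13.78 and 13.79 against 12.40, 13, 12.40, 12.21 and 12.76 in SD (1.09 ± 0.26, adjusted p = 0.00826). Ifit1 was well above background on 3 of 4 BN and 0 of 5 SD arrays. Its measured mean was 8.34 against 6.37, an estimated 3.94-fold higher in BN (1.98 ± 0.65, adjusted p = 0.0412 in limma). The log2 difference was 1.44 to 3.69 over its 18 alternatives. That call was lost without any of BN procainamide 3 or 4 or SD procainamide 1 to 5. Dtx3l was 8.18, 8.45, 7.67 and 7.86 against 7.44, 7.56, 7.19, 7.25 and 7.42, a difference of 0.67 ± 0.16 (adjusted p = 0.00765) in a dim probe, well above background on 14 of 18 arrays. The groups did not overlap in any of these 3 members. For Ifit1, however, the lowest BN array lay only just above the highest SD array. No SD array was well above background there, so that gap is not a clear separation.

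Oas2 was lower in BN under procainamide, at 10.30, 9.42, 9.61 and 9.49 against 10.04, 9.88, 10.45, 11.53 and 11.30, by -0.93 ± 0.32 (adjusted p = 0.0478). The groups overlapped. The call was lost without any of BN procainamide 2, 3 or 4 or SD procainamide 3, 4 or 5, and SD procainamide 4 and 5 are the arrays of slide 2. Of the 13 members that differed on water, Irf7 (0.14), Ifi27 (0.00) and Parp14 (-0.01) were among those within their error here. The probe used for Eif2ak2 gave -0.02, but its dimmer probe gave 1.1 ± 0.29 and passed in limma (adjusted p = 0.0136). The median of the members was 0.05, that of all genes 0.02, and 4 members were apart, against 13.9% of all genes. Neutrophil markers were higher in BN under procainamide in 9 of 12 tested genes (median 1.26), where 9.46% of all genes were higher. Their list median was 11.07 to 12.81 on the BN arrays and 10.30 to 10.82 on the SD arrays. Calls in either direction were 4 of 7 for platelets, 4 of 10 for T cells, 3 of 6 for plasmacytoid dendritic cells, 2 of 8 for NK cells, 1 of 9 for monocytes and 1 of 6 for B cells. Of all genes 19.2% were called. The part of these cells in the strain differences was not tested.

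The other lists of the pathway were counted in the same way. Of 13 targets of interferon gamma tested, 13 rose in BN (median 1.23), where 8.99% of all genes were higher, and 7 in SD (median 0.54), where 1.43% were, none fell in either, and in 3 the BN response was the greater by a direct test. The named ones were Irf1 (1.47 ± 0.13 in BN, 0.89 ± 0.11 in SD), the guanylate-binding protein Gbp2 (1.87 and 1.06) and the chemokine Cxcl9 (3.14 and 2.13). Ifng rose by 3.43 ± 0.44 in BN (adjusted p = 7.19e-05) and 2.17 ± 0.39 in SD (adjusted p = 0.00712), while its receptor genes Ifngr1 and Ifngr2 did not pass. In BN the gamma targets' median lay at 0.85 to 1.38 on the treated arrays and -0.30 to -0.06 on the controls.

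Of the type I ligands and receptor chain 7 of 11 genes were tested. In BN 5 of these 7 passed, 3 of them lower, beside 22.8% of all genes called and 13.8% lower. The 3 lower were ligand genes, Ifnb1 (-0.62 ± 0.11, adjusted p = 0.00103), Ifna5 (-0.67 ± 0.16, adjusted p = 0.00562) and Ifna4 (-0.55 ± 0.14, adjusted p = 0.0104), the last named after its value was seen. Ifnb1 read 0.60, 0.42, 0.45 and 0.60 on the BN controls, -0.08, -0.22, 0.12 and -0.22 on the BN procainamide arrays and -0.07 to 0.12 on the SD controls. Under procainamide in SD it read 0.21, 0.12 and 0.11 on slide 1 and 0.47 and 0.61 on slide 2. As with Oas2, the arrays of slide 2 read higher than those of slide 1, and the part of the slide in these falls was not tested. Of 16 other interferon-stimulated genes tested, 3 rose and 1 fell in BN, beside 8.99% of all genes higher and 13.8% lower (22.8% in all), led by Mov10 (0.64, higher), Ifitm3 (-0.43, lower) and Sp110 (0.35, higher), and 3 rose in SD, Rtp4 (0.84), Ube2l6 (0.84) and Sp110 (0.35).

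Of 10 genes that induce interferon, 3 rose and 2 fell in BN (22.8% of all genes were called), among them the kinase Ikbke (0.89 ± 0.14, adjusted p = 0.000391), and none passed in SD by limma (1 at an unadjusted p under 0.05). Of 8 negative regulators, 2 fell in BN, Nlrx1 (-0.33) and Ptpn11 (-0.38), beside the 13.8% of all genes lower there, and Ptpn11 rose in SD (0.38). Of the markers of plasmacytoid dendritic cells, the leukocytes known for making most type I interferon, 6 of 10 were tested. Lag3 (0.61) and Irf8 (0.54) rose in BN and Lag3 (0.70) in SD, where 22.8% and 3.18% of all genes were called. At an unadjusted p under 0.05 in limma 5 of 6 markers passed in BN, 2 of them lower. In SD 2 of 6 did, 1 of them lower. Other leukocytes also express Lag3 and Irf8, and Irf8 is also among the gamma targets counted above. Siglech and Clec4c had no matched probe. Platelet markers were lower in 4 of 7 in BN (median -0.59) and in 0 of 7 in SD (median -0.43, 3 at an unadjusted p under 0.05). Their list median in log2 ratio was -0.82 to -0.18 on the BN procainamide arrays against -0.10 to 0.22 on the BN controls. Monocyte markers rose in 2 of 9 in BN (median 0.13) and 0 of 9 in SD (0.01, 2 at an unadjusted p under 0.05), and the part of cell numbers in the members' responses was not tested.

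Within groups many of the members varied together from array to array. The correlation of a member's deviation from its group mean with the median deviation of the other members, over 18 arrays, was 0.916 for Oas1a, 0.871 for Isg15, 0.870 for Usp18, 0.864 for Ifit3 and 0.858 for Dhx58, and over 0.5 for 17 of 31. It was below 0 for Oas2 (-0.433), Mx2 (-0.369), Trim25 (-0.192) and Adar (-0.0269). These are descriptions over arrays that share slides and references, with no test and no like value for other genes. The strains were not always alike: Parp9 had 0.932 among BN arrays and 0.187 among SD arrays, where Isg15 had 0.932 and 0.819. The median SD within groups was 0.29 for the members and 0.18 for all named genes. By channel the SD was taken over all arrays of a strain, so it includes the drug response. Among BN arrays the median SD of the members was 0.35 in Cy5 and 0.18 in Cy3, and among SD arrays 0.24 and 0.13. For all named genes it was 0.26 and 0.13 in BN and 0.18 and 0.10 in SD, so the wider sample channel was not particular to the members.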

How the data were processed

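Blood RNA was hybridised to 18 Agilent 2-colour arrays (design 028279). The deposited intensities are median spot and background signals made with Feature Extraction 10.7.1.1, unnormalized, per the file headers; the deposited log10 ratios were background-subtracted and dye-normalized by that software, per the file headers. The authors' deposited matrix of log2 ratios (25602 probes) lay on a line of slope 1 (r at least 0.999) against those ratios taken to log2, which settles its scale and direction, Cy5 over Cy3; its column medians were -0.014 to 0.0653, and its filter is not given in the sources used here. Intensities were corrected with normexp (offset 50), loess-normalized within arrays and, for Cy5 levels, Aquantile-normalized, in limma 3.58.1 (R 4.3.3). Of 30367 probes, 26446 rose well above background in Cy5 on 4 or more of 18 arrays and were tested in a limma model of 4 group means, 2-sided, with Benjamini-Hochberg adjustment across those probes (threshold 0.05). Where a gene had several probes the brightest on average was used; 18355 probes carried 1 symbol, 12012 none. The number of arrays limits the precision. Fits were tested on simulated data. Members named with array values were those past the threshold in a response or its strain difference and the 8 of largest control difference; of other lists up to 3 genes of smallest p; promoters were printed for up to 4 named members of smallest p that hold the motif. Array values of Isg15, Ifnb1 and Dtx3l were added after their values were seen. Members and lists were chosen with earlier results of these data known. Alternatives covered background, normalization, filters, scan day, slide, brightness, replicate block and each array left out. One gene of the surrounding pathway is not reported here.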

Additional observations from a re-analysis of the deposited data

Results flagged for a closer look

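The drug response differed between the strains, by the test of the difference itself, for Oas2 (-2.84, log2, BN minus SD), Irf7 (-1.24) and Ifi27 (-1.21), and in each of these 3 the BN response was the lower.

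Single arrays stood apart from the rest of their group in log2 ratio, by the gap to the nearest array set against the group's range, in 6 of 68 groups of values examined, where chance gives about 5%. BN control 1 was high for Oasl2, at 0.46 where the other controls lay at -0.09 to -0.02. BN control 4 was low for Parp14 (-0.35, nearest -0.01) and BN control 3 for Nmi (-0.48, nearest -0.12). BN procainamide 4 was high for Irf7, at -0.13 with the nearest at -0.78. SD procainamide 3 was low for Nmi (-0.11, nearest 0.12) and high for Ifit1 (-0.05, nearest -0.19), a probe not well above background in SD.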

How the results depend on the processing

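Counts of members called were 6 in the BN response, 5 in the SD response, 3 in their difference, 13 between controls and 4 under procainamide. With each array left out they were 5 to 10, 2 to 7, 3 to 4, 10 to 16 and 2 to 5. Shares of all genes called are not given for the fits with an array left out. Apart from the scan-day difference, they are not given for the alternative fits below either. Those counts therefore cannot be set against a background. Under procainamide the count was 2 without BN procainamide 3 or 4 or SD procainamide 4. In Cy5 alone they were 10 in BN and 7 in the difference, 2 of the 7 with the higher BN response. With scan day as a term they were 0 in BN, 3 in SD, 0 in the difference (0 probes of all) and 0 between controls; by limma 6, 4 and 5 members had an unadjusted p under 0.05 where the count was 0. With slide as a random block (estimated correlation 0.0155 in ratios, 0.151 in Cy5) they were 8 between controls and 2 under procainamide. With array brightness they were 1 in BN, 0 in the difference (5 at an unadjusted p under 0.05) and 4 between controls. Fitting only the groups compared gave 11 in SD (10 higher, 1 lower) and 2 under procainamide, and asking for signal on all 18 arrays, which left 29 members, gave 2 under procainamide. The SD arrays of slide 1 alone, chosen after seeing the data, gave 2 in SD. The cause of these moves was not tested. Replicate numbers did not pair the arrays: same-numbered deviations correlated at -0.523 to 0.129 and 0 of 9 controls matched best with their own number. With a replicate block 5 members were called in BN, 1 in SD and 2 in the difference. Of 642 recomputed values of 31 single calls, 522 kept the call, 120 lost it and 0 changed sign. Dim probes limit Ifit1 and Dtx3l.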
